A study of Mus musculus with 2 samples.

Results

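The cells described here are endothelial cells of the mouse aorta that hold RNA of Cytl1, a small secreted cytokine-like protein. They were chosen by their counts in 2 single-cell RNA-seq libraries. A cell barcode was taken when it held at least 200 genes and at most 20% of its unique molecular identifiers (UMIs, which count captured transcripts) from mitochondrial genes, at least 2 of the 4 endothelial genes Pecam1, Cdh5, Cldn5 and Egfl7, at least 2 UMIs of Cytl1, at most 1 UMI of the capillary gene Gpihbp1, at most 1 of the lymphatic genes Prox1, Mmrn1 and Reln, and no UMI of the leukocyte gene Ptprc. The rule found 272 inhibitor and 175 DMSO barcodes, 447 of the 16521 barcodes that passed the limits on genes and mitochondrial UMIs and of the 1712 that were endothelial by the same genes without regard to Cytl1 and Gpihbp1. They are called Cytl1 luminal cells below.

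Both libraries came from the aorta of Apoe-/- mice, 12 weeks old, that carried an abdominal aortic aneurysm induced with Ang II (angiotensin II). Without apolipoprotein E, plasma cholesterol is high in these mice, and both groups share the genotype and the angiotensin II treatment. The inhibitor group had been given an inhibitor, and the DMSO group the solvent dimethyl sulfoxide. The sample titles are initials, which were read as inhibitor and DMSO from the stated design. Each group is 1 library, made with 10x Chromium 3' v3 chemistry for a target of 5000 cells. Not given in the sources used here are the name, target and dose of the inhibitor and the number of animals pooled. Per the labels the vessel was cut into 5 segments and digested with enzymes, but no file says from which segment a cell came.

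The inhibitor library held 8149 barcodes and 79648307 UMIs, and the DMSO library 9125 barcodes and 101139161 UMIs. The libraries shared 16 barcode sequences, 0 of them among the Cytl1 luminal cells. With 1 library per group there is no measure of variation between animals, so no test was run. Intervals are exact 95% intervals that cover counting error only, and since the cells of a library share 1 source, none of the differences below can be told apart from a difference between these 2 preparations.

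Endothelial cells of the aortic lumen form a single sheet that is exposed to pulsing arterial flow. They store von Willebrand factor, release endothelin and nitric oxide to set vessel tone, and hold arterial identity genes that act with Notch signalling. Capillary endothelium of the surrounding fat and adventitia instead takes up fatty acids, and venular endothelium carries P-selectin and other receptors for leukocytes. When a cell meets misfolded proteins, heat shock chaperones are made for the cytosol and mitochondria under HSF1, and BiP and its partners are made for the endoplasmic reticulum under ATF6 and XBP1.

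The first question was how large a share of each library these cells were. Cytl1 luminal cells were 43.8% of endothelial barcodes in the inhibitor library (272 of 621; Clopper-Pearson 39.9 to 47.8%) and 16.0% in the DMSO library (175 of 1091; 13.9 to 18.4%), a ratio of 2.73 (2.25 to 3.32). Of all kept barcodes they made up 3.46% with inhibitor (3.07 to 3.89%) and 2.02% with DMSO (1.73 to 2.34%), a ratio of 1.71 (1.41 to 2.08). The other endothelial barcodes went the opposite way. Capillary-type barcodes, with at least 2 UMIs of Gpihbp1 and at most 1 of Cytl1, were 2.63% of kept inhibitor barcodes (207) and 5.62% of kept DMSO barcodes (487). Venular-type barcodes, with a UMI of Selp or Ackr1 and at most 1 UMI each of Cytl1 and Gpihbp1, were 0.305% of kept inhibitor barcodes (24) and 1.94% of kept DMSO barcodes (168), a ratio of 0.158 (0.0982 to 0.242). Since all shares within a library add up to a fixed total and digestion frees cell types unevenly, a larger share and a larger number of cells cannot be told apart here.

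**Figure D1:**
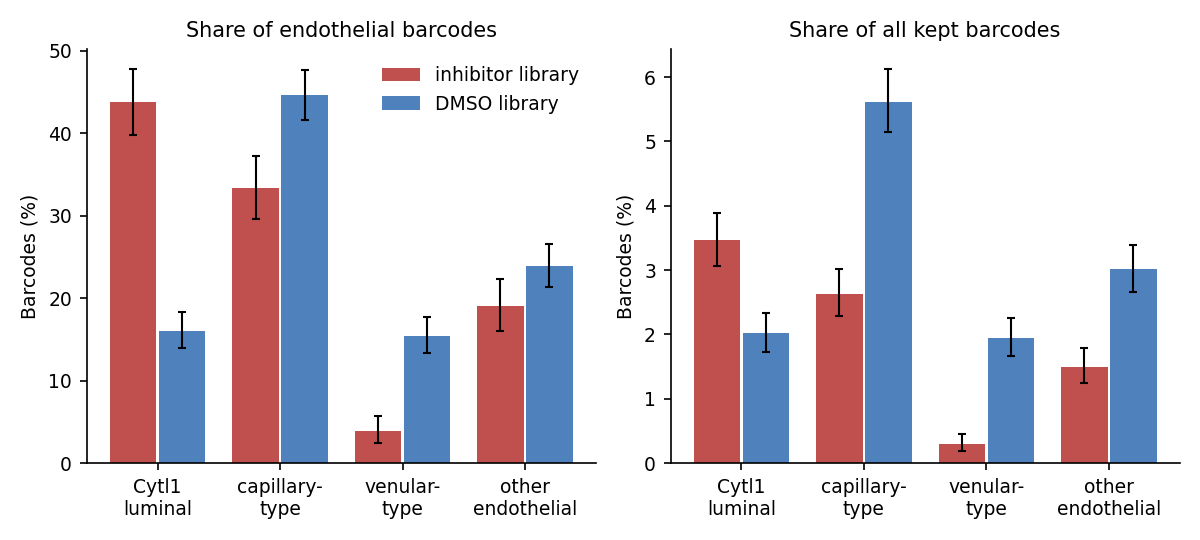
Share of barcodes (%) by endothelial type in the inhibitor library (red, left) and the DMSO library (blue, right), of endothelial barcodes in the left panel and of all kept barcodes in the right panel; bars are shares and whiskers exact 95% Clopper-Pearson intervals. The Cytl1 luminal share was 43.8% of endothelial barcodes with inhibitor and 16.0% with DMSO, while capillary-type and venular-type shares were lower in the inhibitor library.

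Depth differed between the libraries in these cells. The median Cytl1 luminal cell held 5407.5 UMIs and 2297 genes in the inhibitor library, against 8210 UMIs and 3087 genes in the DMSO library, with ranges of 507 to 86448 UMIs with inhibitor and 699 to 61343 UMIs with DMSO. The share of mitochondrial UMIs was close in both (median 4.65% with inhibitor and 4.43% with DMSO). Cytl1 itself chose the cells, so its values are a description. The median inhibitor member held 19 UMIs of Cytl1 and the median DMSO member 11, and the highest held 207 with inhibitor and 205 with DMSO. At the limit of 2 UMIs stood 19 inhibitor and 27 DMSO members. A further 28 inhibitor and 34 DMSO endothelial barcodes with 1 UMI lay just outside it. Members held 85.0% of all Cytl1 UMIs of the inhibitor library and 82.3% of those of the DMSO library. Cytl1 and Gpihbp1 were seldom found together: 2 inhibitor and 3 DMSO endothelial barcodes held at least 2 UMIs of both.

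The label was then checked against genes outside the rule. Vwf, which encodes von Willebrand factor, was found in 250 of 272 inhibitor and 162 of 175 DMSO members, and Edn1, the gene of endothelin-1, in 173 inhibitor and 122 DMSO members. Summed over 16 endothelial genes that the rule did not use, among them Tie1, Tek and Erg, the level was 6487 CPM (UMIs scaled to a total of 1000000) in inhibitor members and 6872 CPM in DMSO members, against 457 CPM in the other kept inhibitor barcodes and 769 CPM in the other kept DMSO barcodes. The arterial list of 19 genes summed to 11079 CPM in inhibitor members and 11725 CPM in DMSO members, against 3620 CPM in other inhibitor and 2925 CPM in other DMSO barcodes. That list includes Eln, which smooth muscle cells and fibroblasts also make. The 12 venous and venular genes were above other barcodes as well, at 2631 CPM in inhibitor members against 838 CPM in other inhibitor barcodes. In DMSO members they summed to 3411 CPM, against 1860 CPM in other DMSO barcodes. Cytl1 and Vwf are also made by endocardial cells, but Npr3 stood at 1.67 CPM in inhibitor and 0.939 CPM in DMSO members, and Hapln1 at 2.92 CPM in inhibitor and 0 CPM in DMSO members. Nfatc1, a transcription factor of the same cells, stood at 35.4 CPM in inhibitor and 49.3 CPM in DMSO members. The whole list of 6 endocardial genes, which holds Cytl1, Vwf and Plvap too, summed to 4731 CPM in inhibitor and 3816 CPM in DMSO members, against 98.4 CPM in other inhibitor and 142 CPM in other DMSO barcodes. Lymphatic markers summed to 39.2 CPM in inhibitor and 93.9 CPM in DMSO members, and T cell markers to 0.417 CPM in inhibitor and 3.76 CPM in DMSO members. Mesothelial markers had no UMI in members of either library. That the cells sat at the lumen of the aorta was not tested, since no file gives a position.

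RNA of smooth muscle cells and fibroblasts was present in these barcodes. The 8 smooth muscle markers summed to 9130 CPM in inhibitor members and 4370 CPM in DMSO members, against 26778 CPM in other inhibitor and 5672 CPM in other DMSO barcodes. The 8 fibroblast markers summed to 3956 CPM in inhibitor members and 7039 CPM in DMSO members, against 14443 CPM in other inhibitor and 19198 CPM in other DMSO barcodes. A part of the members carried most of it: 75 inhibitor members (27.6%; 22.3 to 33.3%) and 59 DMSO members (33.7%; 26.8 to 41.2%) held over 5000 CPM of the markers of smooth muscle, fibroblasts, pericytes, macrophages, adipocytes or Schwann cells. Those members had a median of 13275 UMIs with inhibitor and 12966 UMIs with DMSO. The remaining 197 inhibitor members had a median of 4563 UMIs, and the remaining 116 DMSO members 7374.5 UMIs. Whether such barcodes are doublets, cells with free RNA or cells that make these transcripts was not tested. For many results below the value without them is therefore given too, but correlations between genes were not computed without them.

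**Figure D2:**
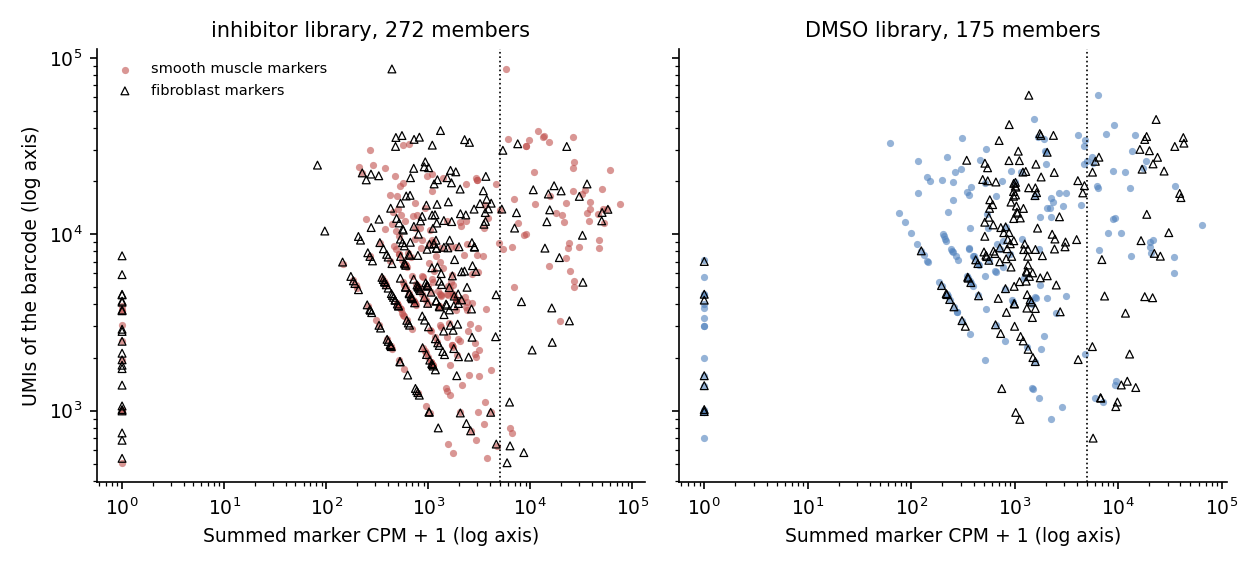
UMIs per barcode (log axis) against the summed level of smooth muscle markers (dots) and fibroblast markers (triangles) in CPM + 1 (log axis) for the 272 members of the inhibitor library (left) and the 175 of the DMSO library (right); each member is drawn once per marker list, and the dotted line stands at 5000 CPM. Beyond the line lie 54 inhibitor and 33 DMSO members for smooth muscle markers, and 30 inhibitor and 37 DMSO members for fibroblast markers.

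The next comparison asked what else these cells hold that capillary endothelium does not. The cells were chosen by Cytl1 and against Gpihbp1, so these differences describe the choice and were not tested. Of 3496 genes with enough counts, 409 (11.7%) were higher in Cytl1 luminal than in capillary-type barcodes in both libraries, and 585 (16.7%) were lower. A gene counted as higher or lower when its CPM differed by at least 1.5-fold with a counting interval that left out 1. Gkn3, the gene of a secreted gastrokine known from arterial endothelium, stood at 447 CPM in inhibitor members and 0.709 CPM in inhibitor capillary-type barcodes, and at 229 CPM in DMSO members and 0.255 CPM in DMSO capillary-type barcodes. Bmx, a tyrosine kinase of arterial endothelium, stood at 241 CPM in inhibitor members, with no UMI in inhibitor capillary-type barcodes, and at 227 CPM in DMSO members and 3.32 CPM in DMSO capillary-type barcodes. For Gja5, which encodes the gap junction protein connexin 40, the levels were 334 CPM in inhibitor members against 0.709 CPM in capillary-type barcodes, and 385 CPM in DMSO members against 10.7 CPM in capillary-type barcodes. These 3 genes were all but absent from capillary-type barcodes of both libraries.

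Other leading genes had less familiar places in the vessel wall. Krt18, a keratin of simple epithelia, stood at 305 CPM in inhibitor members and 0.709 CPM in capillary-type barcodes, and at 237 CPM in DMSO members and 1.28 CPM in capillary-type barcodes. Adh7, an alcohol and retinol dehydrogenase, stood at 195 CPM in inhibitor members and 0 CPM in capillary-type barcodes, and at 135 CPM in DMSO members and 0.510 CPM in capillary-type barcodes. Klk10, a secreted serine protease of the kallikrein family, stood at 144 CPM in inhibitor members and 3.55 CPM in capillary-type barcodes, and at 85.0 CPM in DMSO members and 0.766 CPM in capillary-type barcodes. Further leaders were Enpp6, F2rl1, Pkhd1l1, Tmem158 and Tubb3.

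Marker lists of capillary and arterial genes divided in the same way. All 15 measured capillary genes were lower in Cytl1 luminal cells in both libraries, among them Car4, Rbp7, Btnl9 and the fatty acid transporter Cd36, which stood at 54.2 CPM in inhibitor members and 3561 CPM in inhibitor capillary-type barcodes. Of 15 measured arterial genes, 10 were higher and 1, the Notch ligand gene Dll4, was lower. The venous and venular list was split: of 9 measured genes 4 were higher (Selp, Vcam1, Il6st and Icam1) and 3 lower (Csf2rb, Nr2f2 and Ephb4). Its median log2 ratio was 1.27 for inhibitor and 0.49 for DMSO barcodes. Elastic fibre and matricellular genes were higher in 12 of 14, among them Eln, Fbln5, Ltbp4 and Mgp. Eln, the gene of elastin, stood at 3083 CPM in inhibitor members and 530.4 CPM in inhibitor capillary-type barcodes, and at 2460.2 CPM in DMSO members and 366 CPM in DMSO capillary-type barcodes. Smooth muscle cells and fibroblasts also make elastin, and the marker levels above belong beside this value. Genes of lipid uptake and efflux were lower in 11 of 12, with 0 higher. The VEGF receptor gene Kdr was at 22.9 CPM in inhibitor and 52.6 CPM in DMSO members, against 773 CPM in inhibitor and 691 CPM in DMSO capillary-type barcodes. Across all genes measured here the median log2 ratio was -0.04 for inhibitor and -0.05 for DMSO barcodes.

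Of 11 measured genes of endothelin, nitric oxide, prostanoid and peptide signalling, 7 were higher than in capillary-type barcodes in both libraries and 2, Aplnr and Ednrb, were lower. Of 10 measured haemostasis genes 6 were higher and 0 lower. Edn1 was at 516 CPM in inhibitor and 644 CPM in DMSO members, against 27.7 CPM in inhibitor and 44.1 CPM in DMSO capillary-type barcodes. Ece1, the enzyme that makes active endothelin, was at 681 CPM in inhibitor and 883 CPM in DMSO members, against 239.7 CPM in inhibitor and 346 CPM in DMSO capillary-type barcodes. Nos3, the endothelial nitric oxide synthase, was at 298 CPM in inhibitor and 212 CPM in DMSO members, against 59.6 CPM in inhibitor and 73.0 CPM in DMSO capillary-type barcodes. Vwf was at 1005 CPM in inhibitor and 1163 CPM in DMSO members, against 10.6 CPM in inhibitor and 60.7 CPM in DMSO capillary-type barcodes. Procr, the endothelial protein C receptor, was at 329 CPM in inhibitor and 298 CPM in DMSO members, against 20.6 CPM in inhibitor and 37.8 CPM in DMSO capillary-type barcodes. Against venular-type barcodes, 239 of 3231 measured genes (7.40%) were higher and 198 (6.13%) lower in both libraries, and 13 of 14 measured arterial genes were among the higher ones. Of 12 measured haemostasis genes 1, Mmrn2, was higher there and 2, Tfpi and Entpd1, were lower. Vwf was not called against venular-type barcodes, which held it at 901 CPM with inhibitor and 469 CPM with DMSO. Only 24 venular-type barcodes of the inhibitor library enter that comparison. Within it, fibroblast markers were lower in Cytl1 luminal cells for 7 of 8 genes.

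**Figure D3:**
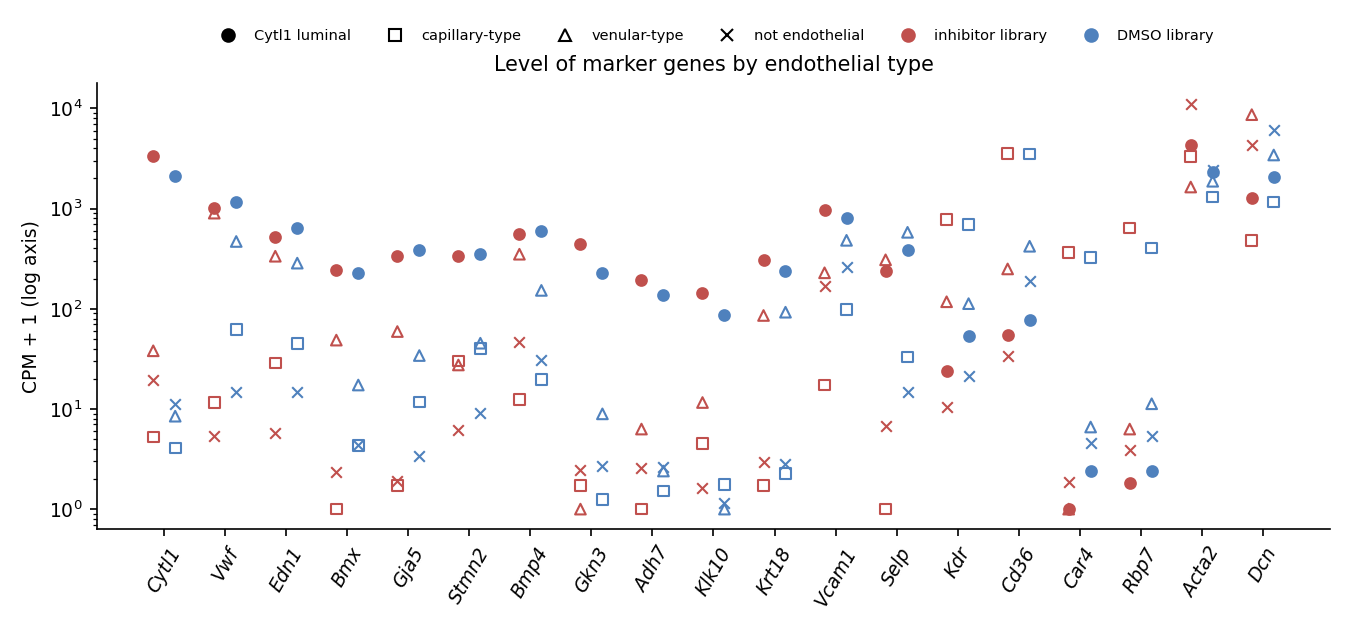
Level of 19 genes in CPM + 1 (log axis) in Cytl1 luminal cells (filled circles), capillary-type (squares), venular-type (triangles) and non-endothelial barcodes (crosses), with the inhibitor library in red at the left of each pair and the DMSO library in blue at the right. Gkn3, Bmx, Gja5 and Vwf stand highest in Cytl1 luminal cells in both libraries, Cd36, Car4 and Rbp7 in capillary-type barcodes, and Acta2 and Dcn show smooth muscle and fibroblast RNA in every type.

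The main comparison set Cytl1 luminal cells of the inhibitor library against those of the DMSO library. UMIs were summed over the members of each library, and a gene was measured when it reached 50 CPM in either library, 30 UMIs in all, and, in the library with the higher level, 50% of the CPM of all barcodes that were not members. The last limit is meant to leave out genes whose level free RNA from other cells could set, but RNA of other cells can still pass it. In DMSO members the smooth muscle markers summed to 77.1% of their level in other barcodes. Pi16 passed the limit, and its ratio of 0.526 became 0.910 without the members high in markers of another cell type. Of 3348 measured genes, 137 (4.09%) were higher in the inhibitor library and 177 (5.29%) were lower. The median log2 ratio over all measured genes was 0.02. These values are the background for each list count over all members below. Without the members high in markers of another cell type, 3487 genes were measured, with a median log2 ratio of -0.01. Of these, 174 were higher and 242 lower, and 88 of the higher and 120 of the lower ones were shared with the first count. List counts without those members belong beside these numbers.

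Chaperone genes were among the higher ones. Of 27 cytosolic and mitochondrial heat shock genes, 17 were measured. Of these, 10 were higher in inhibitor members and 0 lower. Over the 17 the median log2 ratio was 0.84, against 0.02 for all measured genes. Hsp90aa1, the inducible cytosolic HSP90, had 1228 CPM in inhibitor and 497 CPM in DMSO members, a ratio of 2.47 (2.30 to 2.65). Hspd1 and Hspe1, which encode the mitochondrial chaperonin and its lid, had 335 and 516 CPM in inhibitor members, against 142 and 241 CPM in DMSO members. Cacybp, a protein that binds the ubiquitin ligase partner SIAH1, had 219.6 CPM in inhibitor and 89.2 CPM in DMSO members, and Hspa4l, an HSP70 relative, 98.4 CPM in inhibitor and 42.3 CPM in DMSO members. The ratios of the list ran in 1 direction: all 17 measured members lay above a log2 ratio of 0.

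The heat shock genes differed outside the Cytl1 luminal cells too. Of 3504 genes measured in capillary-type barcodes, 121 (3.45%) were higher in the inhibitor library and 166 (4.74%) lower. Over all 3504 the median log2 ratio was 0.01. There 16 of 21 measured members of the heat shock list were higher and 0 lower (median log2 ratio 1.30). In non-endothelial barcodes Hsp90aa1 stood at 2095 CPM with inhibitor and 620.4 CPM with DMSO, a ratio of 3.38. These levels were above those of the Cytl1 luminal cells. With free RNA estimated from leukocyte markers and subtracted, the log2 ratio of Hsp90aa1 in members was 1.21 and the median of the list 0.81. Hspb1 (2492 CPM in inhibitor and 481 CPM in DMSO members) and Hspa1a (700.1 CPM in inhibitor and 282 CPM in DMSO members) fell below the limit for free RNA and were not counted. Without the members high in other markers, 9 of 17 were higher, with a median log2 ratio of 0.77.

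Chaperones of the endoplasmic reticulum, where secreted proteins fold, were higher too. Of 16 listed genes 15 were measured. Of these, 8 were higher in inhibitor members and 0 lower, and the median log2 ratio was 0.60. Hspa5, the gene of the central chaperone BiP, had 1437 CPM in inhibitor and 692 CPM in DMSO members, a ratio of 2.08 (1.95 to 2.21). Manf, a secreted protein of stressed cells, had 592 CPM in inhibitor and 272 CPM in DMSO members. Creld2 had 102 CPM in inhibitor and 39.0 CPM in DMSO members, a ratio of 2.61 (2.03 to 3.39). Sdf2l1, which works with BiP, had 101 CPM in inhibitor and 34.3 CPM in DMSO members, a ratio of 2.94 (2.26 to 3.88). Herpud1, which takes part in the degradation of misfolded proteins, had 237.5 CPM in inhibitor and 119.8 CPM in DMSO members. Hsp90b1, the HSP90 of this compartment, had 1258 CPM in inhibitor and 775 CPM in DMSO members, a ratio of 1.62 (1.53 to 1.72).

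In capillary-type barcodes 4 of 13 measured members of this list were higher and 0 lower, and the median log2 ratio was 0.34. There the ratio of Hspa5 was 1.21 (1.12 to 1.30), at 718 CPM with inhibitor and 593 CPM with DMSO. The intervals of the 2 Hspa5 ratios do not overlap, but they cover counting error only and the difference between the cell types was not tested over animals. In venular-type barcodes, 24 of them with inhibitor, the ratio of Hspa5 was 2.36 (2.11 to 2.62). There Manf, Creld2 and Sdf2l1 had ratios of 2.50, 2.70 and 3.04. In non-endothelial barcodes the ratios of Hspa5, Manf, Creld2 and Sdf2l1 were 1.42, 1.74, 2.30 and 1.36. The difference was thus not particular to Cytl1 luminal cells. Without the members high in other markers, 10 of 15 genes were higher in Cytl1 luminal cells, with a median log2 ratio of 0.73. Of 4 measured genes of the integrated stress response, 0 were higher and 0 lower.

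The promoters of the chaperone genes are shown because both lists have known control motifs whose letters can be read directly. For the endoplasmic reticulum list the motif searched was CCAAT and CCACG with 9 bases between them, on both strands, in the 250 bases before each RefSeq start (build GRCm38.p6). It was found in 7 of 14 listed genes with an entry (50%) and in 35 of all 27025 genes (0.130%). The capitals below mark each match, which reads as CGTGG and ATTGG where it lies on the other strand.
Creld2, chr15:88819396-88819645, plus strand: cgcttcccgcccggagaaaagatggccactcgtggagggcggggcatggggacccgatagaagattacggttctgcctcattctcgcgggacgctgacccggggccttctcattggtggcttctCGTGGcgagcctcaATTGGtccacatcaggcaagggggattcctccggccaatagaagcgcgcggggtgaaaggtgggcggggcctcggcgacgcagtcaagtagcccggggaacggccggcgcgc
Hspa5, chr2:34771840-34772089, plus strand: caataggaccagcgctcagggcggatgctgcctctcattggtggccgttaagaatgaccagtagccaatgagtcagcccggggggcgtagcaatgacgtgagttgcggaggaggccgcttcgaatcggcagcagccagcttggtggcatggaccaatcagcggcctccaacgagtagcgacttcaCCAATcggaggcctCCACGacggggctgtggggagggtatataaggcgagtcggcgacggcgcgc
Hsp90b1, chr10:86705445-86705694, minus strand: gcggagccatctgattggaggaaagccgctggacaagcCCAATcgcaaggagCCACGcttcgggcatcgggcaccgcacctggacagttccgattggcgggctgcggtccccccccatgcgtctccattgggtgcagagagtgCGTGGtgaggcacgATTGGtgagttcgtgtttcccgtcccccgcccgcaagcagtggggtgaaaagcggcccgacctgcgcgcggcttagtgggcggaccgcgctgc
Hsp90b1 held 2 matches, 1 on each strand, and the Hspa5 match lay 65 bases before the start. Of the 7 measured list genes with a match, 4 were higher in inhibitor members (median log2 ratio 0.60), and of 7 without one, 3 were higher (0.31). Sdf2l1, Herpud1 and Dnajb11 were higher with no match in this window.

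For the heat shock list the motif searched was GAA and TTC with 2 bases between them, which reads the same on both strands. TTC before GAA was not searched, and longer runs of these units were not told apart from a single pair. The searched pair was found in 7 of 21 listed genes (33.3%), against 2088 of 27025 genes (7.73%), and in 0 of the 14 endoplasmic reticulum genes. The promoter of Hspe1 is shown because it lies head to head with Hspd1, and both genes were higher in inhibitor members. The capitals mark GAA and TTC of the searched pair only. A ttc before it and a gaa after it, each 2 bases away, are left in lower case.
Hspe1, chr1:55087898-55088147, plus strand: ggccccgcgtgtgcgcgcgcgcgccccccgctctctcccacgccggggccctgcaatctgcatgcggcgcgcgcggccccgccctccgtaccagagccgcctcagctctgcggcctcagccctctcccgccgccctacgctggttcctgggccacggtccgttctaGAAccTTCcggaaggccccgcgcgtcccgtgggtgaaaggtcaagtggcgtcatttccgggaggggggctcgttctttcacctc
Of 4 measured list genes with a match, 3 were higher, and of 9 without one, 5 were higher. A match is a description of these letters and says nothing about binding in these cells.

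Of 13 measured shear-responsive genes, 4 were higher in inhibitor members (Ptgis, Thbd, Timp3 and Cav1) and 2 lower (Pi16 and Txnrd1), with a median log2 ratio of 0.10. Among all measured genes 4.09% were higher and 5.29% lower. Ptgis, prostacyclin synthase, which makes a lipid that relaxes vessels and restrains platelets, had 589 CPM in inhibitor members and 288 CPM in DMSO members, a ratio of 2.05 (1.86 to 2.25). At equal depth a Ptgis UMI was found in 69.05% of inhibitor and 43.7% of DMSO members. In non-endothelial barcodes Ptgis stood at 815 CPM in the inhibitor library and 260.3 CPM in the DMSO library, so the difference was present there as well. Thbd, thrombomodulin, had 210 CPM in inhibitor and 128 CPM in DMSO members, a ratio of 1.64 (1.41 to 1.90), while in capillary-type barcodes its ratio was 0.764 (0.666 to 0.874). Tinagl1, a matrix protein of basement membranes, had 739 CPM in inhibitor and 381 CPM in DMSO members, a ratio of 1.94 (1.78 to 2.11). Timp3, an inhibitor of matrix proteases, had 1482 CPM in inhibitor and 908 CPM in DMSO members, and Lamb2, a laminin chain, 223 CPM in inhibitor and 144 CPM in DMSO members. Cav1, the main protein of caveolae, had 1196 CPM in inhibitor and 789.5 CPM in DMSO members, but its ratio of 1.52 became 1.18 without the members high in other markers. In non-endothelial barcodes the ratios of Tinagl1, Timp3, Lamb2 and Cav1 were 3.31, 2.03, 1.89 and 1.51, so these differences were present there too. That of Thbd was 0.993.

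Among genes induced by interferons 11 were measured, of which 2 were higher in inhibitor members and 0 lower. The median log2 ratio was -0.07. Igtp, an interferon-induced GTPase, had 105 CPM in inhibitor and 43.7 CPM in DMSO members, a ratio of 2.41 (1.90 to 3.10). Gbp4, another GTPase of this kind, had 82.5 CPM in inhibitor and 48.4 CPM in DMSO members. Psmb9, a subunit of the immunoproteasome from the antigen presentation list, had 97.5 CPM in inhibitor and 61.1 CPM in DMSO members, and its ratio of 1.60 became 1.49 without the members high in other markers. The count rested on which members were included: without those high in other markers 17 genes were measured, 7 were higher and 0 lower, and the median log2 ratio was 0.45. In capillary-type barcodes 1 of 22 was higher and 0 lower.

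The 12 highest ratios also included Gm4332, with 52.5 CPM in inhibitor and 17.8 CPM in DMSO members, Cystm1, with 50.0 CPM in inhibitor and 21.1 CPM in DMSO members, and the intermediate filament gene Nes, with 98.4 CPM in inhibitor and 42.7 CPM in DMSO members. For 1500015O10Rik, with 171 CPM in inhibitor and 70.0 CPM in DMSO members, 34.9% of the DMSO UMIs came from 1 cell. The highest ratio of all, 6.21 for Cox8b, came from 1 barcode that held 98.1% of its UMIs in inhibitor members, and it was 0.301 without the members high in other markers. Ccnd1, cyclin D1, had 190.4 CPM in inhibitor and 127 CPM in DMSO members, and its ratio of 1.502 became 0.904 without those members.

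**Figure D4:**
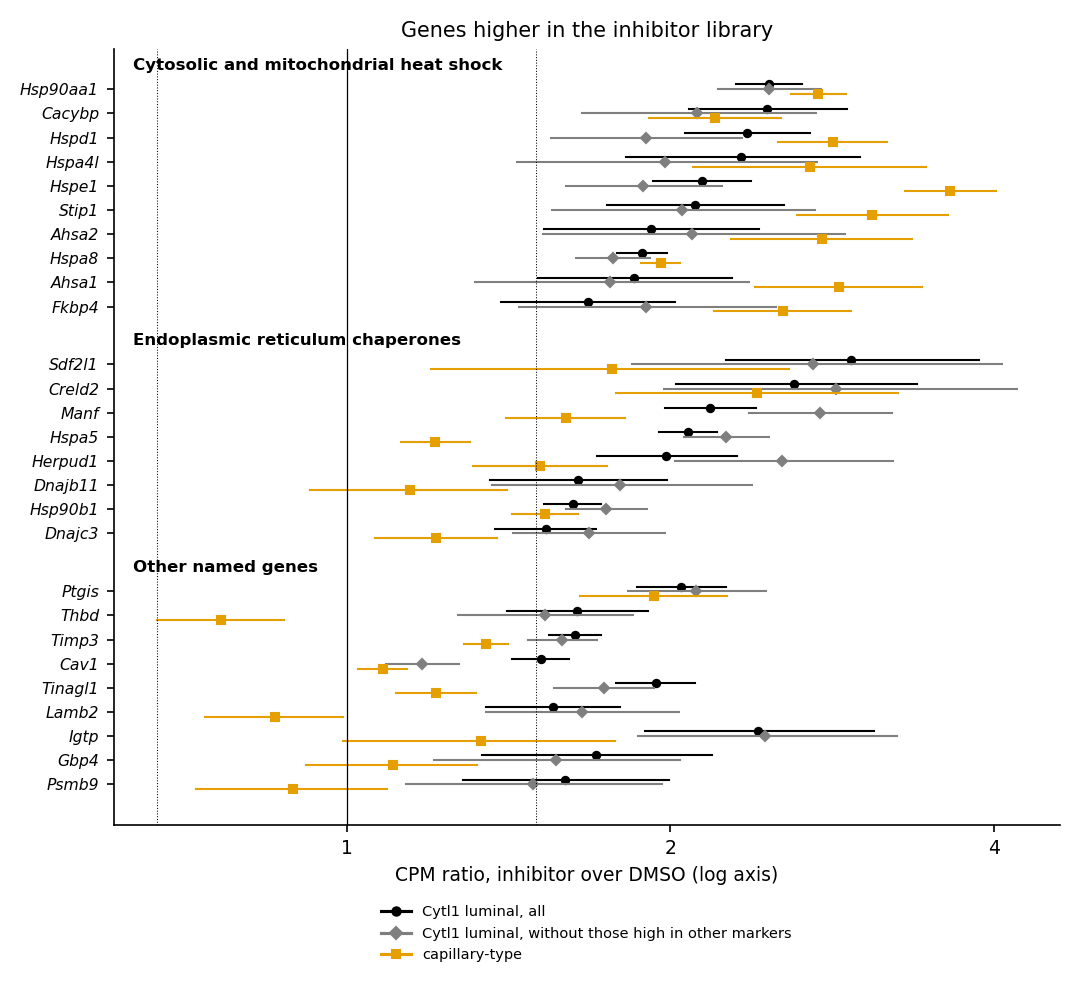
CPM ratio, inhibitor over DMSO (log axis), of named genes that were higher in Cytl1 luminal cells of the inhibitor library, with exact 95% counting intervals, for all members (black circles), members without those high in other markers (grey diamonds) and capillary-type barcodes (orange squares); dotted lines stand at 1.5-fold. Heat shock genes were higher in capillary-type barcodes too, with Hsp90aa1 at 2.75, whereas Thbd, Lamb2 and Psmb9 had capillary ratios under 1.

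On the lower side stood genes of the matrix and its proteases. Col8a1, a short-chain collagen of the endothelial basement membrane, had 200.03 CPM in inhibitor members and 536 CPM in DMSO members, a ratio of 0.373 (0.335 to 0.416), and 0.322 without the members high in other markers. Lamb1, a laminin chain, had 36.3 CPM in inhibitor and 96.3 CPM in DMSO members. Its ratio was 1.07 in capillary-type barcodes but 0.281 in non-endothelial barcodes. Ltbp2, which lies on elastic fibres, had 66.7 CPM in inhibitor and 168 CPM in DMSO members, and the proteoglycan gene Vcan 44.6 CPM in inhibitor and 144 CPM in DMSO members. Fbn1, the gene of fibrillin-1, had 88.8 CPM in inhibitor and 251 CPM in DMSO members, and its ratio of 0.353 became 0.610 without the members high in other markers. Mmp2, a gelatinase, had 156 CPM in inhibitor and 378 CPM in DMSO members, and Mmp14, the membrane protease that activates it, 57.1 CPM in inhibitor and 182 CPM in DMSO members. Bmp1, a protease that trims procollagens, had 38.3 CPM in inhibitor and 128 CPM in DMSO members. In non-endothelial barcodes the ratios of Mmp2, Mmp14 and Bmp1 were 0.479, 0.393 and 0.491. Those of Col8a1, Fbn1, Vcan and Ltbp2 were 0.591, 0.581, 0.719 and 0.776 there.

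Read as lists, beside 5.29% lower and 4.09% higher of all measured genes, 3 of 14 measured basement membrane genes were lower and 2 higher. Their median log2 ratio was -0.37. Elastic fibre and matricellular genes had 3 lower and 1 higher of 14. Among proteases 4 of 9 were lower and 0 higher. Without the members high in other markers 2 of 8 proteases and 2 of 13 basement membrane genes were lower, with 0 and 2 higher, and Agrn, a basement membrane proteoglycan, had a ratio of 0.915 in place of 0.644. Fibroblasts make much of this matrix, and the fibroblast markers summed to 3956 CPM in inhibitor and 7039 CPM in DMSO members. Without the members high in other markers the ratios of Mmp2, Mmp14 and Bmp1 were 0.503, 0.464 and 0.465. Ltbp2 and Vcan then stood at 0.332 and 0.286. Pi16, which is listed both as a shear-responsive and as a fibroblast gene, had 257 CPM in inhibitor and 488 CPM in DMSO members, and its ratio of 0.526 became 0.910.

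Genes of VEGF signalling and sprouting were lower in 4 of 10 measured members and higher in 0, beside 5.29% lower and 4.09% higher of all measured genes. Their median log2 ratio was -0.44. Plxnd1, a receptor for semaphorins, had 155 CPM in inhibitor and 311 CPM in DMSO members, a ratio of 0.496 (0.436 to 0.565). Vegfa, the growth factor itself, had 40.8 CPM in inhibitor and 91.1 CPM in DMSO members, and its receptor gene Kdr 22.9 CPM in inhibitor and 52.6 CPM in DMSO members, a ratio of 0.436 (0.310 to 0.607). Pdgfb, which recruits mural cells, had 91.7 CPM in inhibitor and 143 CPM in DMSO members. In capillary-type barcodes the ratios of Plxnd1, Kdr and Pdgfb were 1.02, 1.12 and 1.13, but that of Vegfa was 0.377. In non-endothelial barcodes the ratios of Plxnd1, Kdr, Pdgfb and Vegfa were 0.457, 0.469, 0.451 and 0.267, so these differences were present there too. Kdr and Pdgfb stood low there, at 9.44 and 9.28 CPM with inhibitor and 20.2 and 20.6 CPM with DMSO.

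Of 14 measured arterial genes 4 were lower and 0 higher (median log2 ratio -0.18), and of 8 measured venous and venular genes 3 were lower and 0 higher (median -0.52). The share over all measured genes was 5.29% lower and 4.09% higher. On the arterial side, Efnb2, the ephrin ligand of arteries, had 153 CPM in inhibitor and 247 CPM in DMSO members, a ratio of 0.622 (0.543 to 0.712). Mecom, a transcription factor of arterial endothelium, had 209 CPM in inhibitor and 331 CPM in DMSO members. The Notch ligand gene Jag1 had 95.02 CPM in inhibitor and 164 CPM in DMSO members, and Sema3g, a secreted semaphorin, 62.9 CPM in inhibitor and 125 CPM in DMSO members. The ratios of Jag1 and Sema3g, 0.578 and 0.504, became 0.773 and 0.739 without the members high in other markers. In non-endothelial barcodes the ratios of Efnb2, Mecom, Jag1 and Sema3g were 1.57, 1.21, 0.846 and 0.298. Bmx (241 CPM in inhibitor and 227 CPM in DMSO members), Gja5 (334 CPM in inhibitor and 385 CPM in DMSO members) and Stmn2 (335 CPM in inhibitor and 348 CPM in DMSO members) were neither higher nor lower by the limits used.

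On the venous side, Lrg1, a secreted glycoprotein, had 183 CPM in inhibitor and 356 CPM in DMSO members, a ratio of 0.514 (0.456 to 0.579). Selp, the gene of P-selectin, had 240.0 CPM in inhibitor and 389 CPM in DMSO members, a ratio of 0.616 (0.553 to 0.686). Nr2f2, the transcription factor that holds venous identity, had 67.1 CPM in inhibitor and 108 CPM in DMSO members. Among genes of other lists, the water channel gene Aqp1 had 150.0 CPM in inhibitor and 279 CPM in DMSO members, and Emcn, a sialomucin of veins and capillaries, 199 CPM in inhibitor and 310.0 CPM in DMSO members. Lrg1 is also made outside endothelium, where it stood at 52.2 CPM in the inhibitor library and 349 CPM in the DMSO library. In non-endothelial barcodes the ratios of Selp and Emcn were 0.414 and 0.472, and those of Nr2f2 and Aqp1 were 1.04 and 0.991.

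Shares of cells with a UMI at equal depth are given next for a few genes of both kinds, beside Gkn3, Klk10 and Adh7. Of the arterial list Stmn2 alone is given, so these shares do not describe that list. Each cell was thinned to 3000 UMIs, which kept 210 inhibitor and 151 DMSO members and left out 62 shallower inhibitor and 24 shallower DMSO members. The kept members had a median of 7698.5 UMIs with inhibitor and 9397 UMIs with DMSO before thinning, and kept non-endothelial barcodes had 10377 with inhibitor and 10836 with DMSO. A UMI of Gkn3 was found in 51.0% of inhibitor members (44.0 to 57.9%) and 34.4% of DMSO members (26.9 to 42.6%), and in 0.262% of non-endothelial inhibitor and 0.339% of non-endothelial DMSO barcodes. Klk10 was found in 29.5% of inhibitor and 11.9% of DMSO members, Adh7 in 40.5% of inhibitor and 25.2% of DMSO members, and Stmn2 in 61.4% of inhibitor and 43.0% of DMSO members. Those genes were found in 0.0983 to 0.983% of non-endothelial inhibitor and 0.0678 to 1.63% of non-endothelial DMSO barcodes. Vwf did not follow them, at 86.7% of inhibitor and 86.8% of DMSO members. Without thinning Gkn3 was found in 60.3% of inhibitor and 46.3% of DMSO members, and Klk10 in 39.7% of inhibitor and 16.0% of DMSO members. The called arterial genes went the other way without thinning, with smaller shares in the inhibitor library. Efnb2 was found in 136 of 272 inhibitor and 128 of 175 DMSO members, and Mecom in 189 inhibitor and 141 DMSO members. Jag1 was found in 120 inhibitor and 99 DMSO members, and Sema3g in 74 inhibitor and 63 DMSO members. DMSO members were deeper, which raises their unthinned shares.

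Lrg1, Emcn and Aqp1 were found in a smaller share of members with inhibitor. Lrg1 was found in 21.9% of inhibitor members (16.5 to 28.1%) and 44.4% of DMSO members (36.3 to 52.7%), with 3.85% of non-endothelial inhibitor and 21.7% of non-endothelial DMSO barcodes as the background. Emcn was found in 24.8% of inhibitor and 41.7% of DMSO members, against 1.26% of non-endothelial inhibitor and 2.95% of non-endothelial DMSO barcodes. Aqp1 was found in 14.8% of inhibitor and 30.5% of DMSO members, against 9.86% of non-endothelial inhibitor and 7.16% of non-endothelial DMSO barcodes. For Nr2f2 the shares were 10.95% of inhibitor and 29.8% of DMSO members, but 31.2% of non-endothelial inhibitor and 29.0% of non-endothelial DMSO barcodes held it, so the share in members is not above that background. Selp was found in 38.1% of inhibitor members (31.5 to 45.0%) and 46.4% of DMSO members (38.2 to 54.6%), and those intervals overlap. Unthinned shares of Lrg1 were 24.6% of inhibitor and 60.6% of DMSO members, and those of Emcn 30.1% of inhibitor and 55.4% of DMSO members.

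Among the thinned members of a library, arterial genes went with each other and tended to go against venous genes. The 17 genes called arterial here include Gkn3, Klk10 and Adh7, which are not on the arterial list and were leading genes of these same data. Of 136 pairs formed by these 17 genes, 127 among inhibitor and 131 among DMSO members had a Spearman correlation above 0, with a median of 0.150 among inhibitor and 0.197 among DMSO members. Venous genes went with each other too. The 10 genes called venous here include Emcn from the general endothelial list and Aqp1 from the capillary list. Of 45 pairs formed by these 10 genes, 35 among inhibitor and 34 among DMSO members lay above 0, with medians of 0.21 and 0.125. Of 170 pairs of an arterial with a venous gene, 125 among inhibitor and 109 among DMSO members lay below 0, with medians of -0.0799 among inhibitor and -0.0656 among DMSO members, which are weak. The correlation of Cytl1 with Gkn3 was 0.468 among inhibitor and 0.448 among DMSO members, and that of Gkn3 with Nr2f2 was -0.276 among inhibitor and -0.294 among DMSO members. Vwf went with the venous gene Lrg1 at 0.384 among inhibitor and 0.311 among DMSO members, and with Gkn3 at 0.0697 among inhibitor and 0.105 among DMSO members. These are descriptions over 210 inhibitor and 151 DMSO cells, each set from 1 library, and the genes were chosen after their values had been seen. Only 143 of these inhibitor and 102 of these DMSO cells were not high in markers of another cell type. The correlations were not computed without the others, so what those add to them was not tested. Since Cytl1 chose the cells and stood at 3358 CPM in inhibitor and 2128 CPM in DMSO members, its part in the differences between the libraries was not tested.

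The lowest ratios belonged to a mixed group. Dkk2, a secreted regulator of Wnt signalling, had 10.0 CPM in inhibitor and 77.0 CPM in DMSO members, a ratio of 0.130 (0.0809 to 0.200). Dclk1, a microtubule-associated kinase, had 22.9 CPM in inhibitor and 112 CPM in DMSO members, and at equal depth was found in 1.43% of inhibitor and 20.5% of DMSO members, against 8.96% of non-endothelial inhibitor and 16.0% of non-endothelial DMSO barcodes. Sox4, a transcription factor of progenitor cells, had 127 CPM in inhibitor and 415 CPM in DMSO members, a ratio of 0.305 (0.267 to 0.348), and 0.264 without the members high in other markers. Marcksl1, an actin regulator, had 25.004 CPM in inhibitor and 103 CPM in DMSO members. Syt15 had 17.1 CPM in inhibitor and 66.2 CPM in DMSO members, Clca3a1 25.004 CPM in inhibitor and 84.1 CPM in DMSO members, and the unnamed locus CT010467.1 77.5 CPM in inhibitor and 273 CPM in DMSO members. Glycam1, a ligand of L-selectin best known from high endothelial venules, had 13.8 CPM in inhibitor and 68.1 CPM in DMSO members and was found in 6 inhibitor and 33 DMSO members. In non-endothelial barcodes the ratios of Dkk2, Dclk1, Sox4 and Marcksl1 were 0.131, 0.494, 0.445 and 0.402. Those of Clca3a1 and CT010467.1 were 0.305 and 0.240, but that of Syt15 was 1.83. Dkk2 and Syt15 stood low there, at 1.90 and 4.53 CPM with inhibitor and 14.5 and 2.47 CPM with DMSO.

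Cxcl13, the chemokine that attracts B cells, had no UMI in inhibitor members and 268 CPM in DMSO members, a ratio of 0 (0 to 0.00576). With 3 UMIs put in place of 0 for the inhibitor members, Cxcl13 would be 214-fold lower there. Its 570 UMIs lay in 24 DMSO members, and without those high in other markers its level was 5.40 CPM. Non-endothelial barcodes held it at 20.9 CPM in the inhibitor library and 246 CPM in the DMSO library. Ankrd1, a target of the mechanosensor YAP, had 34.6 CPM in inhibitor and 95.4 CPM in DMSO members, which came from 16 inhibitor and 7 DMSO members, and stood at 0.813 CPM in inhibitor and 0 CPM in DMSO members without those high in other markers.

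**Figure D5:**
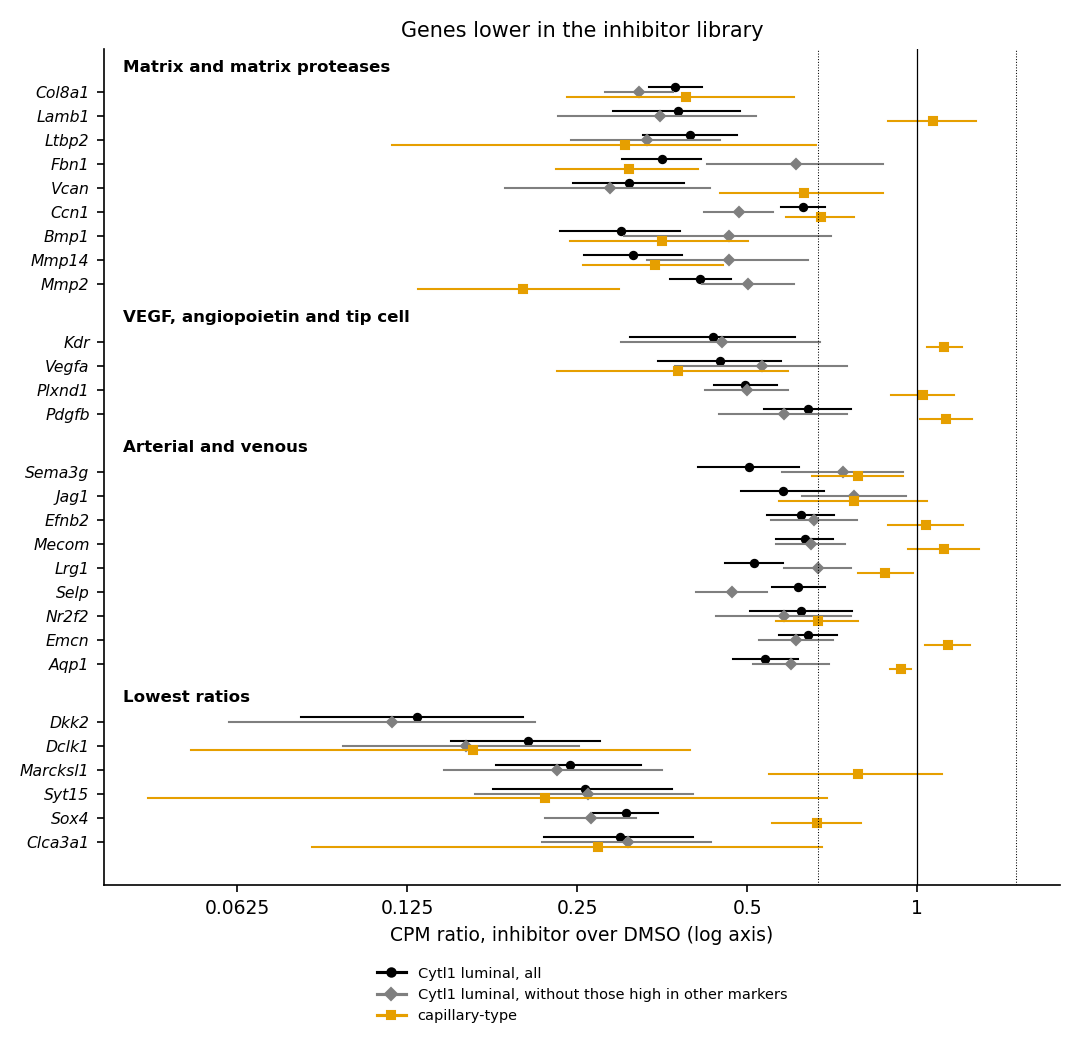
CPM ratio, inhibitor over DMSO (log axis), of named genes that were lower in Cytl1 luminal cells of the inhibitor library, with exact 95% counting intervals, for all members (black circles), members without those high in other markers (grey diamonds) and capillary-type barcodes (orange squares); dotted lines stand at 1.5-fold. Col8a1, Plxnd1, Sox4 and Dkk2 stayed below the 1.5-fold line without those members, and Kdr, Plxnd1, Pdgfb and Emcn had capillary ratios above 1. In non-endothelial barcodes, which are not drawn, the ratios of Kdr, Plxnd1, Pdgfb and Emcn were 0.469, 0.457, 0.451 and 0.472.

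Receptors and early response genes completed the lower side. Of 14 measured genes of TGF-beta and BMP signalling 3 were lower, the receptor genes Tgfbr2 (105 CPM in inhibitor and 211 CPM in DMSO members) and Tgfbr3 (34.2 CPM in inhibitor and 60.6 CPM in DMSO members) and the effector gene Smad1 (48.8 CPM in inhibitor and 87.8 CPM in DMSO members), and 0 were higher. Plat, tissue plasminogen activator, which starts the dissolving of clots, had 70.8 CPM in inhibitor and 163 CPM in DMSO members, a ratio of 0.433 (0.359 to 0.522). Ptgs2, the inducible cyclooxygenase, had 40.01 CPM in inhibitor and 76.6 CPM in DMSO members, but 53.1% of its inhibitor UMIs came from 1 cell. Its ratio of 0.523 became 0.254 without the members high in other markers. Immediate early genes, which respond within minutes to a stimulus, were lower in 3 of 12 measured members (Fosl2, Ier5 and Nr4a1) and higher in 0, with a median log2 ratio of -0.40. Without the members high in other markers the ratio of Nr4a1, 0.664, became 0.870, and that of Tgfbr3, 0.564, became 0.749. In capillary-type barcodes 12 of 17 were lower, with a median of -0.64, beside 4.74% lower and a median of 0.01 over all genes measured there. Hif1a, the hypoxia factor, had 78.3 CPM in inhibitor and 131 CPM in DMSO members, and Nfkbiz, an NF-kappa-B regulator, 52.5 CPM in inhibitor and 101 CPM in DMSO members. In non-endothelial barcodes the ratios of Tgfbr2, Tgfbr3, Plat, Ptgs2 and Nfkbiz were 0.521, 0.547, 0.628, 0.587 and 0.302. Those of Ier5 and Nr4a1 were 0.560 and 0.439, and those of Smad1, Fosl2 and Hif1a were 1.10, 0.903 and 0.804.

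Several lists had few genes called, beside 4.09% higher and 5.29% lower of all measured genes. Haemostasis genes had 1 higher and 1 lower of 11, leukocyte adhesion genes 0 higher and 1 lower of 10, chemokines 0 and 1 of 7, NF-kappa-B genes 0 and 1 of 6, and Notch genes 0 and 1 of 9. Of the 9 Notch genes, 0 lay above a log2 ratio of 0, and their median was -0.18. Glycolysis and hypoxia genes had 0 higher and 2 lower of 13, and antioxidant genes 0 and 0 of 12. Vwf stood at 1005 CPM in inhibitor and 1163 CPM in DMSO members, a ratio of 0.864 (0.816 to 0.914), and Edn1 at 516 CPM in inhibitor and 644 CPM in DMSO members, a ratio of 0.801 (0.741 to 0.865). Vcam1, an adhesion receptor for leukocytes, stood at 968 CPM in inhibitor and 812 CPM in DMSO members. The flow-responsive factor genes Klf2 (1104 CPM in inhibitor and 1439 CPM in DMSO members) and Klf4 (559 CPM in inhibitor and 635 CPM in DMSO members) and the nuclear RNA Malat1, with a ratio of 0.964, were likewise neither higher nor lower by the limits used. Cholesterol synthesis genes were too low to be measured, with 0 of 15 past the minimum.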

How the data were processed

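The deposited gene-by-barcode tables hold counts of UMIs for each of 2 libraries. Per the file headers the authors made them with Cell Ranger 6.1.1, and per the submitters' processing notes the build was GRCm38 and Seurat was used. The depth was 79648307 UMIs with inhibitor and 101139161 with DMSO. No source used here says whether free RNA or doublets had been removed before deposit.

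From these counts, barcodes of 200 or more genes and no more than 20% mitochondrial UMIs were kept, 7857 with inhibitor and 8664 with DMSO. Members were chosen by the stated rule and their UMIs summed per library and divided by the library's members' total as CPM. Ratios have exact conditional binomial 95% intervals, and levels and shares exact Poisson and Clopper-Pearson ones, all for counting error only. Genes were called at 1.5-fold with an interval that leaves out 1. Log2 ratios are of CPM after adding 5 CPM, which understates the change of low genes. Mitochondrial, ribosomal, haemoglobin, immunoglobulin and T cell receptor genes and the genes of the rule were not called. Doublets were not removed, and an alternative leaves out the 6% of barcodes with the highest Scrublet score. The members and gene lists were chosen with earlier results of these data known. Genes named are the 12 highest and 12 lowest ratios, up to 4 per gene list and direction, and Vwf, Edn1, Malat1, Apoe and the genes of the rule, with 12 each way against the other types; other genes were named after their values were seen. The calling was run on simulated Poisson counts drawn from the pooled members, the same model as the intervals. They held no variation between cells, doublets or free RNA, so that run cannot show how the calling copes with these. A total of 16 alternatives were planned and 1 was added after seeing the data. Promoters were read from RefSeq, build GRCm38.p6. Of the listed genes 14 of 16 (endoplasmic reticulum) and 21 of 27 (heat shock) had an entry. Python 3.11.15 was used with numpy 2.4.6, pandas 2.3.3, scipy 1.17.1 and scanpy 1.11.5.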

Additional observations from a re-analysis of the deposited data

Results flagged for a closer look

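Among the named genes, 2 were called at 1.5-fold in opposite directions between the libraries in Cytl1 luminal cells and in another endothelial type. Neither difference was tested. Other named genes, such as Thbd (1.64 in Cytl1 luminal cells and 0.764 in capillary-type barcodes), lay on opposite sides of 1 without being called in both. Cox8b, a subunit of cytochrome c oxidase known from muscle and brown fat, had a ratio of 6.21 in Cytl1 luminal cells (64.2 CPM in inhibitor and 10.3 CPM in DMSO members), against 0.185 in capillary-type barcodes (20.6 CPM with inhibitor and 111 CPM with DMSO) and 0 in venular-type barcodes (0 CPM with inhibitor and 199 CPM with DMSO). In inhibitor members 98.1% of its UMIs came from 1 barcode. Pi16 had a ratio of 0.526 in Cytl1 luminal cells (257 CPM with inhibitor and 488 CPM with DMSO), against 1.53 in venular-type barcodes (1632 CPM with inhibitor and 1064 CPM with DMSO), and 0.910 in members that were not high in markers of another cell type.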

How the results depend on the processing

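Under every alternative run, the share of Cytl1 luminal cells was larger in the inhibitor library, with log2 ratios of 0.63 to 0.91 of kept barcodes (0.78 as reported) and 1.33 to 1.59 of endothelial barcodes (1.45). The median log2 ratio stayed between 0.63 and 0.93 for heat shock genes, 0.50 and 0.73 for endoplasmic reticulum chaperones and -0.65 and -0.39 for venous genes, but ran from -0.19 to 0.48 for interferon-induced genes. The numbers of genes called moved with the limits. At 2-fold 25 genes were higher and 46 lower in inhibitor members, with 250 and 359 against capillary-type and 112 and 120 against venular-type barcodes. With at least 100 CPM required the numbers were 79 and 75, 257 and 322, and 128 lower against venular-type barcodes. With no filter on low levels they were 472 and 761, 819 and 1139, and 376 lower. With at least 3 of the 4 endothelial genes required, 99 were higher and 117 lower against venular-type barcodes, and without the members high in other markers, an alternative chosen after seeing the data, 374 were higher. Scaled by the median ratio of genes, 104 were higher and 202 lower. Of the log2 ratios set apart from 0 in the reported setting, these changed sign: Agrn (0.0602, mean over cells), Ankrd1 (0.0860, Cytl1 of at least 3), Ccnd1 (-0.22 without the 5% of barcodes with most UMIs, -0.15 without members high in other markers), Cox8b (-1.73 without those members), the Notch median (0.0459 with Cytl1 of at least 1, 0.0038 as a mean over cells) and the arterial median (0.0402 with Cytl1 of at least 1). The cause was not tested. Values near 0 that were not called also changed sign, namely Vwf (up to 0.01) and Malat1 (up to 0.09). So did the medians of the interferon, NF-kappa-B, TGF-beta, antioxidant, mesenchymal, glycolysis, haemostasis, integrated stress and junction lists. The medians of the division (0.31), mechanosensing (-0.25) and complement (-0.22) lists stood farther from 0 and changed sign too. They ran from -0.06 to 0.70, from -0.40 to 0.04 and from -1.22 to 0.095. No paired analysis was possible because each group is 1 library.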

Other observations

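Complement and lipid efflux genes gave single lower members that the results above do not describe. Cd55, which protects cells from complement, had 42.9 CPM in inhibitor and 91.1 CPM in DMSO members, a ratio of 0.471, and was the only one of 4 measured complement genes that was called. Abca1, which exports cholesterol, had 137 CPM in inhibitor and 225 CPM in DMSO members, a ratio of 0.609, and was the only one of 5 measured lipid genes called. The lysosomal protease genes Ctsd (505 CPM with inhibitor and 836 CPM with DMSO) and Lgmn (325 CPM with inhibitor and 521 CPM with DMSO) were lower, and the ratio of Ctsd, 0.604, became 0.776 without the members high in other markers. Igfbp4, which binds insulin-like growth factors, had 536 CPM in inhibitor and 1090 CPM in DMSO members, and its ratio of 0.491 became 0.684 without those members.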
